A study of Mus musculus and Homo sapiens with 9 samples.

Results

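The data described here are 2 CUT&Tag peak lists made with the S9.6 antibody in HEK293 cells, a human embryonic kidney line, one without and one with transfection of a plasmid labelled RNH1. Peaks were placed in 3 classes by whether they shared at least 1 bp with a peak of the other list on the assembled hg38 chromosomes. Of 15147 peaks in the S9.6 list, 10769 had no counterpart (S9.6-only, 71.1%, 95% Wilson interval 70.4 to 71.8) and 4378 had one (shared, 28.9%). Of 12497 peaks in the RNH1 list, 4381 were shared and 8116 had no counterpart (RNH1-only, 64.9%, 64.1 to 65.8), and the 2 lists met in 4414 overlapping pairs. The lists differ in length, and with nearly 1 partner per shared peak the longer list has the larger unmatched share by arithmetic, so the difference between both shares holds nothing beyond the list lengths. The series holds 9 libraries, of which 4 are from HEK293 cells. The S9.6 library was from wild-type HEK293 cells and its label names no transfection, whereas the RNH1 S9.6 library was from wild-type HEK293 cells that had received the RNH1 plasmid, which in this study stands for RNase H1 (gene symbol RNASEH1) and not for the ribonuclease inhibitor whose official symbol is RNH1. Mouse IgG and anti-FLAG libraries from HEK293 cells, the latter after transfection with FLAG-MCM8, were used only as reference lists of 17178 and 13295 peaks. Each group held 1 library with no replicate, and the share of cells that took up the plasmid is not given. A difference between the lists therefore cannot be told apart from a difference between 2 single libraries, no p-value was computed, and every interval covers counting error only, with fragments not marked by molecular identifiers.

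R-loops are structures in which a nascent RNA pairs with its template DNA strand and leaves the other DNA strand unpaired. They form often at transcribed, GC-rich promoters, where G-rich RNA makes a stable hybrid. RNase H1 cuts the RNA strand of such hybrids, so its overexpression is widely used to ask which S9.6 signals depend on hybrids, while the S9.6 antibody binds DNA-RNA hybrids and can also bind other nucleic acid structures. In CUT&Tag the antibody directs a transposase that cuts and tags nearby DNA, and a peak is a stretch where tagged fragments pile up above the local background. The absence of a peak from a list does not show the absence of signal, because each list holds only peaks past a threshold, and the numbering of the deposited peaks skipped 1790 numbers for S9.6 and 1978 for RNH1, so peaks had been taken out of both lists.

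The sequences at the centre of the strongest peaks of each class show what the lists hold. Given are 81 bases around the summit, on the plus strand of hg38, of the 4 peaks per class with the highest −log10 q that had no IgG peak, had no annotated untranslated region in the window, among those whose sequence is reported here. Capitals mark runs of 3 or more G or C. The S9.6-only sequences lie between genes on chromosome 10, at the ELL promoter (peak midpoint 305 bp from a start site), in LRRC27, and where NDST2 overlaps the gene ENSG00000272916.
chr10:128464520-128464600: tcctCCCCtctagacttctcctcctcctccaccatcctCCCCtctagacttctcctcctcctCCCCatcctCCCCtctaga
chr19:18522373-18522453: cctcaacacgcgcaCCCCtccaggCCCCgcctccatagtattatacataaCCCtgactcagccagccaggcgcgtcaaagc
chr10:132364388-132364468: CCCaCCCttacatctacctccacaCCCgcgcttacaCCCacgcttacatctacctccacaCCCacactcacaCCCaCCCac
chr10:73811883-73811963: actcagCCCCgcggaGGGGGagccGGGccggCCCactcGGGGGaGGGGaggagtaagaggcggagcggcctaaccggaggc
The shared sequences lie in the MCM8 gene, between genes on chromosome 1, in CCDC183 and at the FOXK2 promoter.
chr20:5967896-5967976: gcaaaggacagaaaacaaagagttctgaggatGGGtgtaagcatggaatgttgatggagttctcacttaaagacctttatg
chr1:236097194-236097274: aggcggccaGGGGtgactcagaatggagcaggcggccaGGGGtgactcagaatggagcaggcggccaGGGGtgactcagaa
chr9:136802951-136803031: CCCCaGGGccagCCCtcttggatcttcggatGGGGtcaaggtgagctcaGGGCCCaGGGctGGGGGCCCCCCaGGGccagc
chr17:82586351-82586431: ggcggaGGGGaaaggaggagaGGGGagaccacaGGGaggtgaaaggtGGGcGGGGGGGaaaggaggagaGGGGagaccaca
The RNH1-only sequences lie in an intron of ENSG00000286033 on chromosome 21, in an intron of KCNS3, in ACP4 where it overlaps SMIM47, and at the FAM117A promoter.
chr21:8811855-8811935: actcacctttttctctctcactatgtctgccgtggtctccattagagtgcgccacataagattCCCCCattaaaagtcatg
chr2:18295657-18295737: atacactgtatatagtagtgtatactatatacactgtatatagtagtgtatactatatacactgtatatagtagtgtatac
chr19:50791905-50791985: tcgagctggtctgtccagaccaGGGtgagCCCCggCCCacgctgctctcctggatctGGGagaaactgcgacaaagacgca
chr17:49764335-49764415: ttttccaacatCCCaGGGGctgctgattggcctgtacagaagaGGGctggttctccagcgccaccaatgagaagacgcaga
Some of these windows are tandem repeats. Over the 100 bases on both sides of the summit, the shared chromosome 1 peak repeated itself every 29 bases at 98.8% of positions, and the KCNS3 peak every 28 bases at 100% of positions. The FOXK2 window matched itself at 76.5% of positions at a period of 48 bases, whereas the ELL window reached only 33.8% at its best period. Of the other S9.6-only windows, that between genes reached 65.3% at 34 bases, LRRC27 60.4% at 52 bases and NDST2 42.0%. The RNH1-only windows other than KCNS3 reached from 33.7% to 35.8%.

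Strength and sharing went together. Strength is given here as the fold enrichment that MACS2 reports at the summit over local background and as the −log10 of its q-value. S9.6-only peaks had a median fold of 4.25 (quartiles 3.75 and 4.80) and shared peaks 4.87 (4.07 and 5.90) in the S9.6 list. RNH1-only peaks had a median fold of 4.03 (3.57 and 4.56). Shared peaks were wider, with a median of 464 bp against 312 bp for S9.6-only and 310 bp for RNH1-only peaks. The overlap rule itself favours wider peaks, so this difference cannot be read as a trait of the class apart from the rule. The classes were not compared at equal width, here or in the contrasts below. When the S9.6 list was divided into 4 bins of about equal size by −log10 p, the share of peaks with a counterpart was 9.24% in the weakest bin, 15.8% and 27.0% in the middle ones and 63.5% in the strongest. The RNH1 list ran the same way, from 12.8% through 21.3% and 35.1% to 70.5%. Of the 100 strongest peaks of each list, 99 were shared, and 40 of those 100 for S9.6 and 52 for RNH1 also overlapped an IgG peak, whose part in the sharing was not tested.

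**Figure D1:**
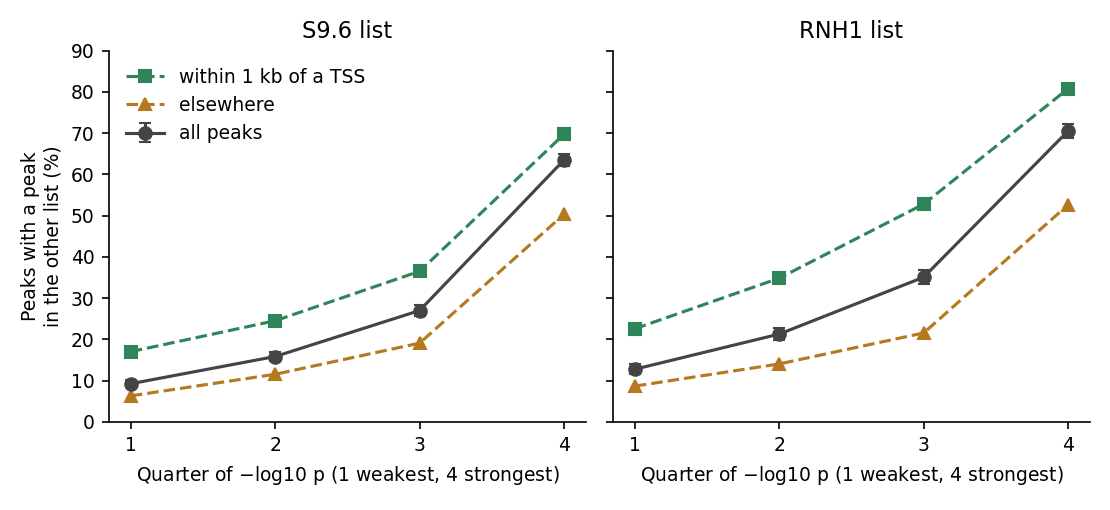
Share of peaks with a counterpart in the other list (%, y axis) by strength bin, from weakest to strongest −log10 p (x axis), for the S9.6 list on the left and the RNH1 list on the right. Circles are all peaks with 95% Wilson intervals, squares are peaks within 1 kb of a transcription start site and triangles the rest. In the strongest bin 69.8% of promoter peaks and 50.3% of other peaks of the S9.6 list were shared, against 17.0% and 6.30% in the weakest.

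At the same q, the S9.6 list held more unmatched peaks than the RNH1 list, with counterparts sought in the whole other list. S9.6 peaks were thus set against 12497 peaks and RNH1 peaks against 15147. The list lengths enter these shares, and their part was not separated. At a −log10 q of 10 or more, 496 of 2145 S9.6 peaks (23.1%, 21.4 to 24.9) had no counterpart, and 235 of 1650 RNH1 peaks (14.2%, 12.6 to 16.0). At 15 or more the counts were 69 of 844 (8.18%) and 27 of 610 (4.43%), and at 20 or more 15 of 427 and 7 of 304, where the intervals overlapped. Of those 15 S9.6-only peaks 13 lay within 1 kb of a start site, and of the 7 RNH1-only peaks 3 did. Some unmatched peaks lay near a peak of the other list. Of S9.6-only peaks 5.58% had an RNH1 peak within 1 kb and 23.1% within 10 kb, and the corresponding shares of RNH1-only peaks were 7.20% and 28.7%. At protein-coding start sites, 22.7% (21.3 to 24.3) of 3044 S9.6-only and 31.8% (29.8 to 33.8) of 1993 RNH1-only peaks belonged to a gene with a TSS peak in the other list. The list lengths enter these neighbour and gene shares too, since 4934 genes had an RNH1 TSS peak and 6022 an S9.6 one.

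The 3 classes differed in their place in the gene. A peak was called a promoter peak when its midpoint lay within 1 kb of any annotated transcription start site (TSS). Promoter peaks made up 66.4% (65.0 to 67.8) of shared peaks, 34.2% (33.3 to 35.1) of S9.6-only peaks and 30.0% (29.1 to 31.0) of RNH1-only peaks, against 10.2% of IgG peaks. Shared peaks thus exceeded S9.6-only peaks by 32.2 points (Newcombe interval 30.5 to 33.9), and S9.6-only exceeded RNH1-only peaks by 4.12 points (2.78 to 5.46). Introns took 29.8% of S9.6-only, 13.6% of shared and 31.6% of RNH1-only peaks, and stretches between genes took 18.6%, 9.59% and 19.2%. Coding exons took 1.25%, 0.434% and 1.40%. Taken as whole lists, S9.6 and RNH1 had 43.5% and 42.9% promoter peaks, a difference of 0.624 points whose interval (−0.550 to 1.80) included 0.

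**Figure D2:**
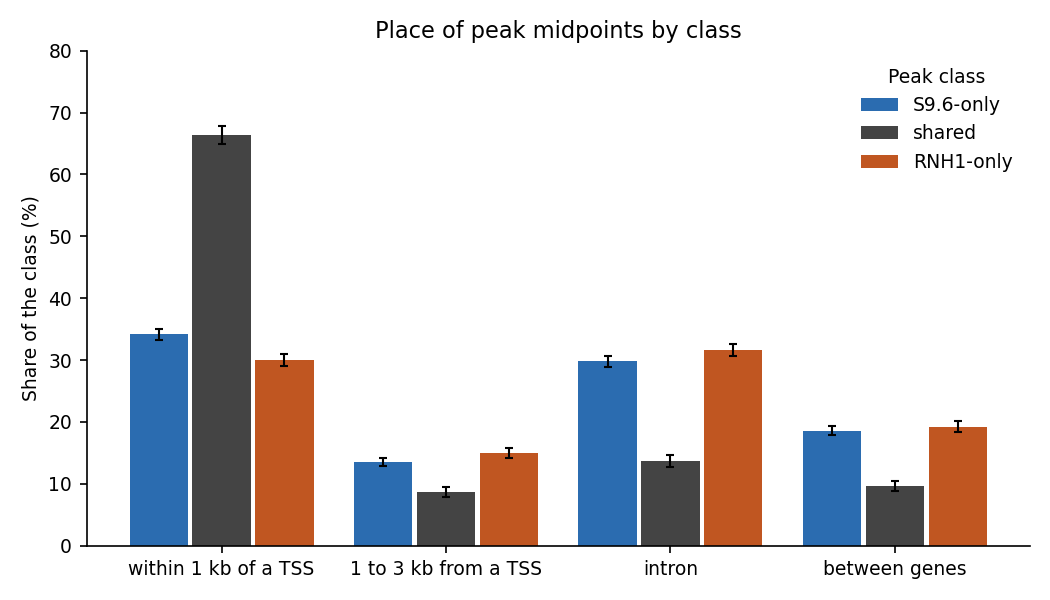
Share of each peak class (%, y axis) by place of the peak midpoint (x axis), with 95% Wilson intervals as error bars. Shared peaks reached 66.4% within 1 kb of a start site, above 34.2% of S9.6-only and 30.0% of RNH1-only peaks, and were lower in introns and between genes.

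The promoter excess of shared peaks held within strength. It was 25.5 points in the weakest bin of the S9.6 list, 21.6 and 21.9 points in the middle bins and 18.3 points (15.1 to 21.4) in the strongest. In the RNH1 list it was 25.9, 28.2, 33.7 and 31.4 points from the weakest to the strongest bin, so it did not run one way with strength in both lists. Read from the gene side, 55.9% (54.7 to 57.1) of promoter peaks in the S9.6 list had no RNH1 peak, against 84.3% (83.1 to 85.4) of intron peaks, 87.7% (81.5 to 92.0) of coding exon peaks and 82.6% (81.1 to 84.1) of peaks between genes. Among peaks over 3 kb from any TSS and inside 1 protein-coding gene, 67.7% (65.8 to 69.4) of S9.6-only, 67.2% (62.8 to 71.2) of shared and 68.7% (66.7 to 70.7) of RNH1-only peaks lay in an intron after the first, with overlapping intervals. By chromosome, leaving out Y with 7 S9.6 peaks (3 without an RNH1 peak), the share of S9.6 peaks without an RNH1 peak ran from 62.6% (56.0 to 68.8) on chromosome 21 to 79.3% (75.1 to 83.0) on chromosome X.

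Summits of the classes also sat differently around start sites. Relative to the nearest canonical protein-coding TSS within 1 kb, shared summits lay at a median of −75 bp (quartiles −238 and 90, negative being upstream) and 38.0% (36.0 to 40.0) were downstream. S9.6-only summits lay at a median of −3 bp with 49.4% (47.2 to 51.6) downstream, and RNH1-only summits at 29 bp with 52.8% (49.9 to 55.7) downstream. The intervals of the 2 unmatched classes overlapped.

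**Figure D3:**
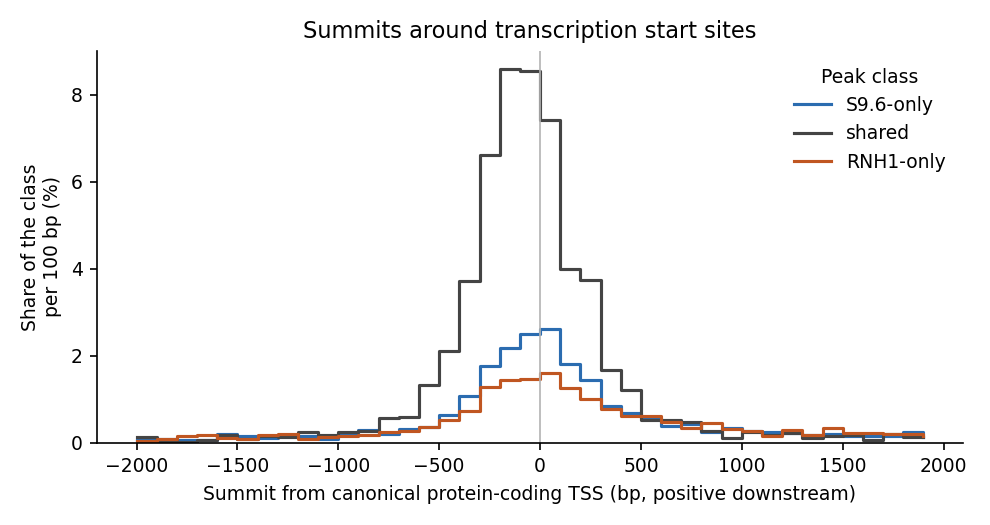
Share of each class per 100 bp (%, y axis) by distance of the summit from the nearest canonical protein-coding TSS (bp, x axis, positive downstream). Shared summits peak just upstream of the TSS, with a median of −75 bp, and the S9.6-only and RNH1-only classes lie lower and centre on it, with medians of −3 and 29 bp.

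At the level of genes, 6022 of 20033 protein-coding genes had an S9.6 peak within 1 kb of a TSS and 4934 an RNH1 peak. Both lists had one at 3496 genes (17.5%), S9.6 alone at 2526 (12.6%) and RNH1 alone at 1438 (7.18%), and 41.9% of genes with an S9.6 TSS peak had none in the RNH1 list. A gene counted under both lists need not have overlapping peaks, and neighbours that share a promoter are counted on the same peak. Of 18866 lncRNA genes, 948 had a TSS peak in both lists, 893 in S9.6 alone and 506 in RNH1 alone. Genes with a peak in both lists more often had the start site of another protein-coding gene within 1 kb upstream on the opposite strand (20.8%, 19.4 to 22.1) than S9.6-alone (12.7%) and RNH1-alone genes (10.7%), against 5.53% of genes with neither. FLAG-MCM8 peaks lay at the TSS of 33.3% of the genes with both, 12.5% of S9.6-alone and 17.1% of RNH1-alone genes, against 5.40% of genes with neither. IgG peaks lay at the TSS of 9.93%, 7.21% and 6.68% of these genes, against 3.94% of genes with neither.

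Genes of DNA replication, DNA repair, RNA splicing and protein folding were marked in both lists more often than protein-coding genes at large, as were several of the lists given further on. Of 42 MCM, ORC, GINS and polymerase genes, which build and run the replication machinery, 17 had a TSS peak in both lists, 6 in S9.6 alone and 1 in RNH1 alone (POLD4, fold 3.81). ORC6, a subunit of the origin recognition complex, had folds of 8.89 in S9.6 and 8.56 in RNH1, and MCM6, of the replicative helicase, 5.99 and 7.98. Of 60 splicing factor genes 26 were marked in both, 9 in S9.6 alone and 5 in RNH1 alone. HNRNPD, which binds AU-rich RNA, had folds of 10.4 and 5.81 with 74 and 40 fragments piled up at the summit, whereas HNRNPH3 had 6.12 in S9.6 and no RNH1 peak. Of 77 heat shock and DNAJ genes 27 were marked in both, 9 in S9.6 alone and 5 in RNH1 alone, among them the divergent pair HSPD1 and HSPE1 of the mitochondrial chaperonin at 10.7 and 7.50. Against the background of 17.5% of genes marked in both lists, the shares were 40.5% (27.0 to 55.5), 43.3% (31.6 to 55.9) and 35.1% (25.3 to 46.2), and 40.7% (24.5 to 59.3) for the Fanconi and recombination genes given below.

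In the share marked in both lists, ribosomal and histone genes stood nearer to the background of 17.5% or below it. That share was 18.6% for cytosolic ribosomal, 20.5% for mitochondrial ribosomal and 7.25% for histone genes. Cytosolic ribosomal protein genes had 16, 13 and 10 of 86 in both lists, S9.6 alone and RNH1 alone. RPS19 had folds of 3.98 and 6.76, RPLP0 had 6.42 in S9.6 alone and RPL37 had 5.99 in RNH1 alone, so single members went either way. Mitochondrial ribosomal protein genes had 16, 20 and 8 of 78. Their S9.6-alone share was 25.6% (17.3 to 36.3), an interval above the 12.6% of all genes. Of those with an S9.6 TSS peak 55.6% (39.6 to 70.5) lacked one in RNH1, an interval that holds the 41.9% of all genes. The initiation factor genes given below had an S9.6-alone share of 21.4% (12.71 to 33.8), an interval barely above the 12.61% of all genes. Their RNH1-alone share was 14.3% (7.42 to 25.7), against 7.18% of all genes. Replication-dependent histone genes, which are short and without introns, had 5, 8 and 3 of 69. Of 515 ZNF genes 88 were marked in both, 56 in S9.6 alone and 35 in RNH1 alone, and of 39 HOX genes 1, 1 and 2. Genes that HEK293 cells are not known to use were nearly unmarked, with 1 of 416 olfactory receptor genes (OR52P1, S9.6 alone) and 1 of 94 keratin-associated protein genes (KRTAP5-11, S9.6 alone).

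For the remaining lists, TSS peaks in both lists, in S9.6 alone and in RNH1 alone were found at 17, 12 and 8 of 56 initiation factor genes, 14, 10 and 2 of 50 proteasome genes, 16, 7 and 6 of 54 DEAD and DEAH box helicase genes, and 35, 17 and 7 of 107 respiratory chain genes. The shares in both lists were 30.4% (19.9 to 43.3) for initiation factors, 29.6% (19.1 to 42.8) for the helicases, 32.7% (24.6 to 42.1) for the respiratory chain and 32.6% (20.9 to 47.0) for cyclins and CDKs, each with an interval above 17.5%. The proteasome share was 28.0% (17.47 to 41.7), an interval that began barely above the 17.45% of all genes. The counts were 11, 6 and 2 of 27 Fanconi and recombination genes, 15, 8 and 2 of 46 cyclin and CDK genes, and 5, 4 and 4 of 28 small nucleolar RNA host genes. Of 6 markers of HEK293 cells, KRT8 and PAX2 had a TSS peak in S9.6 alone and VIM in RNH1 alone, and of ALB, HBB, CD3E and PTPRC, markers of other cells, none had one. A TSS peak does not measure expression.

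**Figure D4:**
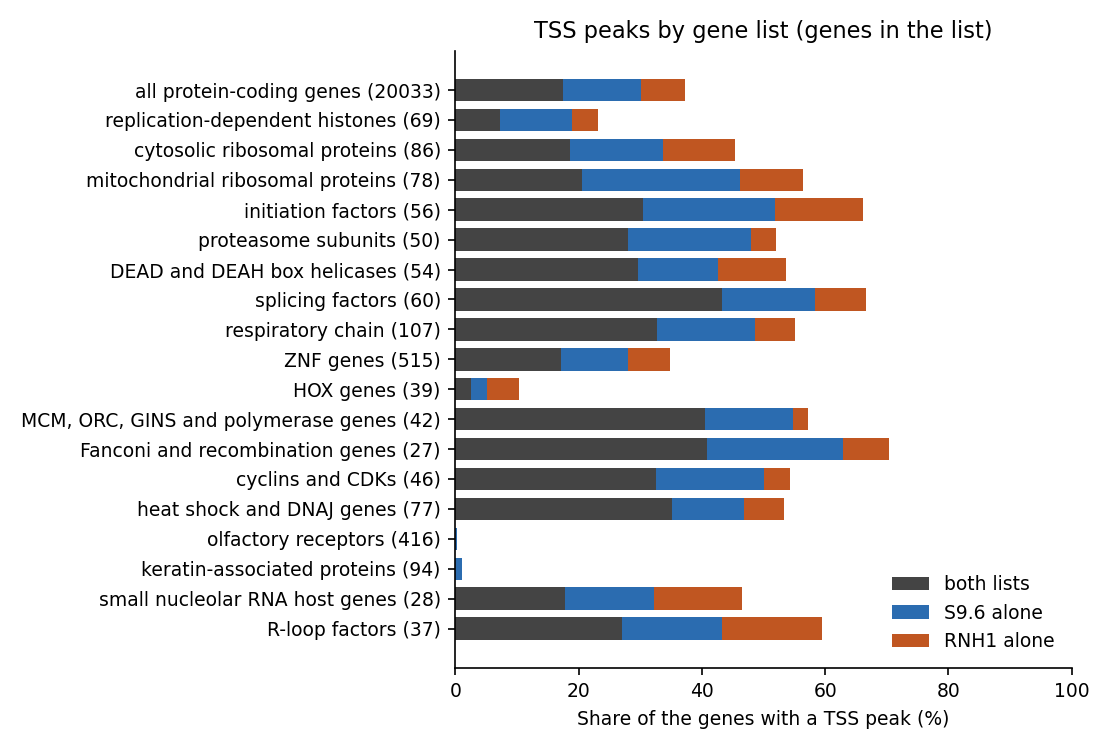
Share of the genes of each list with a TSS peak (%, x axis), divided into genes with a peak in both lists, in S9.6 alone and in RNH1 alone; the number of genes in the list stands in parentheses. All protein-coding genes stand at the top with 17.5%, 12.6% and 7.18%, splicing factors reach 43.3% in both lists, and olfactory receptors and keratin-associated proteins stay near 0.

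Genes that act on R-loops were found in each of the 3 groups. Of 37 such genes, 10 had a TSS peak in both lists (27.0%, 15.4 to 43.0), 6 in S9.6 alone and 6 in RNH1 alone (16.2% each, 7.65 to 31.1). The first 2 intervals hold the 17.5% and 12.6% of all protein-coding genes, and the third lies just above their 7.18%. The helicase genes DDX5 and DHX9, whose proteins unwind DNA-RNA hybrids, were in both, at folds of 6.82 and 6.38 for DDX5, which also had an IgG peak, and 5.58 and 4.40 for DHX9. TOP1, which relaxes the supercoils around polymerases, had 5.90 and 7.12, also with an IgG peak, and TDRD3, the scaffold of topoisomerase 3B, 7.52 and 6.10. The splicing helicase AQR had 6.71 and 5.60, and WRN, a RecQ helicase, 5.60 and 5.91. RTEL1, which also had an IgG peak, MCM9 and BRCA2 were in both as well, with folds from 3.17 to 5.06, and the MCM9 peaks of the 2 lists lay at different sites. RNASEH1 itself was marked in S9.6 alone, with a fold of 5.30 and 26 fragments at its TSS. The other S9.6-alone genes were THOC5 and THOC1 of the THO complex that packages mRNA for export (5.14 and 4.88), the repair genes FANCD2 (4.88) and BRCA1 (3.77), and the helicase BLM (4.41). The RNH1-alone genes were TOP2B (6.33), the splicing factor SRSF1 (4.44), and DDX41, DDX21, DDX39B and ALYREF with folds from 3.20 to 3.83. RNASEH2A, RNASEH2B and RNASEH2C, the subunits of RNase H2, had no TSS peak in either list.

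Loci that are often used to assay R-loops were found both in and outside the lists. CALM3 had folds of 5.48 in S9.6 and 4.19 in RNH1, EGR1 5.63 and 3.93, TFPT 4.85 and 4.63, and the lncRNA gene MALAT1 5.12 and 3.30, so each had the lower fold in RNH1, although the TFPT summit pileup was 28 in S9.6 and 34 in RNH1, while the immediate early gene JUN stood at 5.24 and 5.66. RPL13A, APOE, FOS, ING3 and NEAT1 had a TSS peak in neither list, and neither had ZNF554 and SNRPN, which usually serve as R-loop-poor controls. Of these genes, RPL13A had 1 S9.6 peak and no RNH1 peak elsewhere in the gene, and NEAT1 had 2 in each list. MYADM had 6.12 and 4.71. The deubiquitinase gene USP37 had 7.78 and 6.34 with summit pileups of 41 and 28, and FBXO4 had an S9.6 peak alone (6.10, 19 fragments). The cell cycle genes CDK4 and GMNN had higher folds in RNH1, 6.08 and 6.21 for CDK4 and 5.62 and 7.24 for GMNN. The S9.6 and RNH1 values thus fell in either order at single loci.

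At shared peaks the heights of both summits could be compared. The fold and the Poisson p of a peak fix the whole number of fragments at its summit, and this pileup was recovered in both lists for 4410 pairs. The median pileup was 26 fragments in S9.6 and 26 in RNH1. The lowest background of the RNH1 list was 1.09 times that of the S9.6 list (2.48 and 2.28 fragments), and after division by it the median ratio of RNH1 to S9.6 was 0.920, a log2 difference of −0.12 (quartiles −0.34 and 0.14). In 2697 pairs (61.2%, 59.7 to 62.6) the scaled value was lower in RNH1. Without that scaling 1974 pairs were lower, 2174 higher and 262 equal. The direction of the pileups over all pairs thus rests on the depth estimate. Scaled by fragments per Mb, a second estimate with a ratio of 1.06, the median was −0.09 with 57.7% of pairs lower. The deposited fold, set against the local background of each list, was lower in RNH1 in 2722 of 4414 pairs (61.7%, 60.2 to 63.1). Its median log2 difference was −0.09. Promoter pairs had a scaled log2 difference of −0.12 with 64.3% (62.5 to 66.0) lower, and intron pairs −0.03 with 53.7% (49.7 to 57.7) lower. In 4 bins by the mean of both libraries, the share of lower pairs was 60.6%, 60.3%, 61.1% and 62.6% from the weakest to the strongest. Pairs with an IgG peak had a log2 difference of −0.02.

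Differences of 2-fold or more were few, and their balance depended on the scaling. The scaled pileup was at least 2-fold lower in RNH1 at 49 pairs and at least 2-fold higher at 4, and without depth scaling at 22 and 15. Of the 49 pairs, 44 lay within 1 kb of a protein-coding TSS and 3 had an IgG peak. Of all 4410 shared pairs, 2665 lay at a protein-coding TSS and 508 had an IgG peak. The lowest ratios at promoters, named after their values were seen, were at BARD1, the partner of BRCA1, with 40 fragments in S9.6 and 16 in RNH1 (ratio 0.368), at ADSS2 of AMP synthesis with 47 and 19 (0.372), and at the aspartyl aminopeptidase gene DNPEP with 48 and 20 (0.383). Next came PWWP2A, a reader of the histone variant H2A.Z, with 47 and 20, and TFAP2A, a transcription factor of neural crest and skin, with 44 and 19. BARD1 shares its promoter with the small nucleolar RNA host gene SNHG31. The higher pairs included PHTF1 with 12 fragments in S9.6 and 27 in RNH1 (2.07), the chaperone gene HSPH1 with 14 and 31 (2.04), and a peak whose nearest protein-coding gene was LILRB5 with 17 and 37, which also had an IgG peak.

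**Figure D5:**
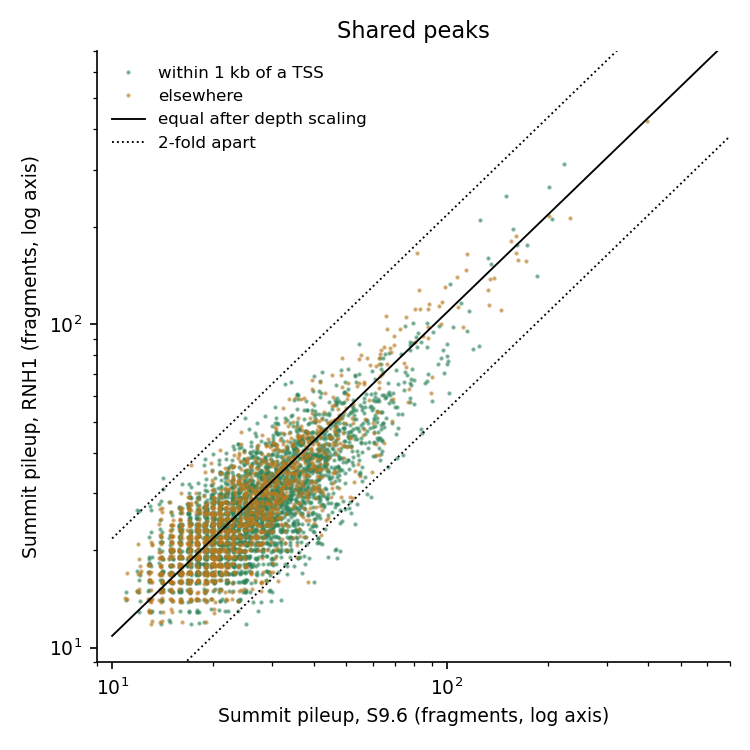
Recovered summit pileup of each shared pair in S9.6 (fragments, log x axis) and RNH1 (fragments, log y axis), with promoter pairs in green and others in ochre and points spread slightly for legibility. The solid line marks equal values after depth scaling and the dotted lines a 2-fold difference, beyond which 49 pairs lie below and 4 above.

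The strongest S9.6-only peaks were at promoters, apart from 1 between genes. The peak between genes (chr10:128464381-128464620) had a fold of 11.3 and 59 fragments. FAM162A, a mitochondrial protein gene, had a fold of 11.0 (44 fragments, chr3:122384067-122384393), ELL, of transcription elongation, 8.73 (53, chr19:18522174-18522668), LRRC27 8.35 (50) and NDST2, of heparan sulphate synthesis, 6.50 (58). FAF2 (8.64), PHACTR4 (8.73) and SLC20A1, a phosphate transporter gene (7.61), followed. None of these peaks had an IgG peak, and ELL, FAM162A, FAF2 and PHACTR4 had a FLAG-MCM8 peak. The nearest RNH1 peak lay between 2072 bp from the PHACTR4 peak and 117886 bp from the FAM162A peak.

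The strongest RNH1-only peak was of another kind. It covered the 3′ end of GH1, the growth hormone gene (chr17:63916689-63917308, annotated last exon and the bases after it), with a fold of 16.1 and a −log10 q of 1974, the highest of the RNH1 list. The IgG list had a peak over nearly the same bases (63916679 to 63917311, fold 18.1), also the highest of its list, and S9.6 and FLAG-MCM8 had none. Why these bases were covered in 2 of the 4 libraries was not tested. The next RNH1-only peaks were at the NUFIP2 promoter (fold 9.46, 46 fragments), in an ADGRA1 intron (7.51, with an IgG peak), in the chromosome 21 intron named above (3.07, 141 fragments, 311 bp from an S9.6 peak), in KCNS3 (7.56), and at CARD8, an inflammasome gene (7.32), and C16orf86 (6.09).

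The strongest peak of the S9.6 list lay in MCM8 and was shared. It ran from 5967426 to 5968037 on chromosome 20 in both S9.6 and RNH1, with folds of 19.7 and 17.7, began 10 bases before exon 9 and ended 12 bases after exon 10 of 19 exons. The FLAG-MCM8 list, from cells given an MCM8 plasmid, had its strongest peak over the same exons with a fold of 21.6, and the IgG list had none in the gene. No RNH1 peak lay in any of the 8 exons of RNASEH1, the only RNH1 peak in that gene being in an intron (3550918 to 3551253 on chromosome 2, fold 4.31), so the lists offer no check of the RNH1 plasmid. Other leading shared peaks lay between genes on chromosomes 16 (folds 22.0 and 22.1) and 1 (18.9 and 18.3) and in SERINC2 (18.1 and 19.5), the first and last with IgG peaks. At promoters without an IgG peak the leading ones were FOXK2 (13.8 and 16.7), KPNB1, the nuclear import receptor importin β (11.2 and 10.1), EEF2KMT (8.96 and 9.02) and NUP98 of the nuclear pore (10.7 and 8.40).

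The bases around the summits followed the classes. Over the 100 bases on both sides of the summit, median GC content was 63.2% (quartiles 57.2 and 68.7) at shared summits, 57.2% (50.7 and 63.7) at S9.6-only and 56.7% (49.8 and 62.7) at RNH1-only summits, 46.3% at IgG summits and 39.8% in 29373 windows of the same length spaced 100000 bp along the genome. The CpG ratio, observed over expected from the C and G content, had a median of 0.663 at shared, 0.279 at S9.6-only and 0.267 at RNH1-only summits and 0.172 in the genome windows. At protein-coding promoters the ratio was 0.783, 0.664 and 0.536, so the order held there. It was 0.816 at all 20033 canonical promoters, whose windows, here and below, centre on the TSS and not on a summit. Strength was not held equal in these medians. In the strongest S9.6 bin, S9.6-only and shared summits had median CpG ratios of 0.515 and 0.720 and GC of 61.7% and 64.2%. In the weakest bin the values were 0.235 and 0.466, and 55.2% and 61.7%. The whole S9.6 and RNH1 lists had equal medians, 59.2% GC and a CpG ratio of 0.346. In 1000 bases centred on the canonical TSS, 90.2% (89.2 to 91.1) of genes with peaks in both lists, 83.3% (81.8 to 84.7) of S9.6-alone, 79.8% (77.6 to 81.8) of RNH1-alone and 54.7% of genes with neither had a CpG ratio over 0.6. GC skew, the excess of G over C on the sense strand, is a feature of promoters prone to R-loops. In the 500 bases after the TSS it was positive at 72.6% (71.1 to 74.0), 70.8% (69.0 to 72.6), 69.2% (66.8 to 71.5) and 63.9% (63.0 to 64.7) of these genes, in the same order, and the interval of the genes with neither lay below the other 3.

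Short motifs were searched on both strands of the same windows, and a match is a description of the letters and not of binding. GGGCGG, the letters of the GC box bound by SP and KLF factors, was in 41.8% (40.4 to 43.3) of shared, 19.5% (18.8 to 20.3) of S9.6-only and 15.9% (15.1 to 16.7) of RNH1-only windows, in 53.7% of all canonical promoters and 4.73% of IgG windows. At protein-coding promoters alone it was in 57.6%, 42.6% and 34.8%, and S9.6-only exceeded RNH1-only by 7.79 points (5.04 to 10.5). CCAAT was in 28.6% of shared and 18.7% of S9.6-only promoter windows, a difference of 9.96 points (7.75 to 12.2), and in 17.2% of RNH1-only ones. Over 3 kb from a TSS the direction was the opposite, with CCAAT in 14.4% of shared and 18.8% of S9.6-only windows (−4.45 points, −6.66 to −2.03). CCGGAAG, the letters of ETS sites, was in 6.97% of all shared, 2.80% of S9.6-only and 2.23% of RNH1-only windows. At protein-coding promoters alone it was in 10.2%, 6.96% and 5.37%. AP-1 letters (TGANTCA) and TATAAA were in 3.91% and 2.24% of all shared windows against 5.83% and 4.45% of S9.6-only windows, but at protein-coding promoters the differences of −0.412 (−1.31 to 0.501) and −0.636 points (−1.37 to 0.100) included 0. Windows with 4 runs of GGG or more, at most 7 bases apart on either strand, the pattern of G-quadruplexes, made up 18.0% of shared, 11.4% of S9.6-only and 10.5% of RNH1-only windows, 25.4% of all canonical promoters and 2.12% of genome windows. The 2 unmatched classes differed in this by 0.853 points, with an interval from −0.0496 to 1.75. The whole S9.6 and RNH1 lists had the pattern in 13.3% and 13.4% of windows. All motif shares given here are over peaks of every strength. NRF1 (GCGCATGC), CRE (TGACGTCA), E-box (CACGTG), YY1 (AAGATGGC) and CTCF (AGGGGGC) letters were each in no more than 11.8% of any class. Each was more frequent in shared than in S9.6-only windows, NRF1 by 1.78 points (1.31 to 2.32) and CTCF by 3.58 (2.52 to 4.69). At protein-coding promoters these 2 differences were 1.97 (1.12 to 2.86) and 2.91 points (1.16 to 4.67), and the intervals for CRE, E-box and YY1 included 0. Runs of 10 A or T were in 0.480% of shared, 1.27% of S9.6-only and 1.13% of RNH1-only windows against 6.44% of genome windows.

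Tandem repeats were more frequent among shared than among unmatched peaks. A window was counted as a repeat when at least 80% of its bases matched those a fixed 3 to 60 bases further on. By that measure 4.16% (3.60 to 4.79) of shared, 0.891% (0.731 to 1.09) of S9.6-only and 1.54% (1.29 to 1.83) of RNH1-only windows were repeats, against 0.862% of IgG windows, 0.201% of genome windows and 0 of 20033 canonical promoters. Over 3 kb from a TSS the share was 12.3% (10.5 to 14.4) of shared peaks, 1.24% of S9.6-only and 2.15% of RNH1-only peaks, the last 2 differing by −0.906 points (−1.44 to −0.401). Of the 100 strongest peaks, 24 for S9.6 and 33 for RNH1 were repeats. Reads from repeats can be placed at more than one copy, and the part of this in the shared peaks was not tested.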

How the data were processed

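CUT&Tag peak lists of 4 HEK293 libraries were analysed, 1 per group. Per the labels and the methods of the study, the authors aligned reads to hg38 with bowtie2 2.2.4 and called peaks with MACS2, given as 2.2.7.1 in the methods and 2.1.2 in the processing notes. The deposited narrowPeak lists hold, for each peak, a score, the fold (ratio) of summit pileup over local background, and the −log10 p-value and q-value, all above a −log10 p of 5. Peaks on the assembled chromosomes were compared by an overlap of at least 1 bp, annotated with GENCODE 44 by their midpoint, and described by shares with 95% Wilson and Newcombe intervals (Python 3.11.15, numpy 2.4.6, pandas 2.3.3, scipy 1.17.1, matplotlib 3.10.9). Summit pileups were recovered from fold and p for −log10 p below 250, and scaled by the lowest background. Read totals were not given in the sources used here, so relative depth was estimated from that background and, as an alternative, from fragments per Mb. The steps were tested on simulated data. With 1 library per group no test between groups was possible. The members and gene lists were chosen with earlier results of these data known. Genes named are fixed loci, the 8 strongest peaks per class, the 4 strongest at promoters without an IgG peak, and up to 3 members per list and class, and members of counts of 5 or fewer. Thresholds, overlap rules, IgG peaks, list length, promoter distance and scaling were varied. Results for a few genes are not reported here.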

Additional observations from a re-analysis of the deposited data

Results flagged for a closer look

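Peaks on the mitochondrial genome were left out of the comparisons, which used the assembled nuclear chromosomes. The S9.6 list held 9 of them and the RNH1 list 7, the IgG list 6 and the FLAG-MCM8 list 8. The S9.6 count was above that of IgG, which is why it is given here, but the S9.6 peaks covered 8473 bp and the IgG peaks 11373 bp, and their median folds were 1.25 and 1.29. The difference was not tested.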

How the results depend on the processing

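The share of S9.6 peaks without an RNH1 peak, and of RNH1 peaks without an S9.6 peak, depended on the threshold and on what counts as overlap. They were 65.0% and 56.8% at q of 1e-05 or lower, 72.2% and 62.9% at a fold of at least 4, 72.9% and 66.7% without peaks that overlapped IgG peaks, 80.2% and 76.1% when at least 50% of both peaks had to be in common, and 67.1% and 60.3% when peaks within 1 kb counted. With the same number of strongest peaks from both lists they were 66.9% and 66.8%, which are nearly equal by construction and say nothing more about the lists. In 4 bins of S9.6 peaks from weakest to strongest the share was 90.8%, 84.2%, 73.0% and 36.5%. Shared peaks exceeded S9.6-only peaks in promoter share by 18.3 to 36.2 points, and S9.6-only exceeded RNH1-only peaks by 2.50 to 8.13 points, under the alternatives run. Genes with a TSS peak in S9.6 alone numbered 2094 to 2880 and in RNH1 alone 1047 to 1733. The median log2 difference of summit pileup at shared peaks, −0.12, became 0.00 without scaling for depth. With the deposited fold in place of the pileup it was −0.09. The scaling by fragments per Mb and the removal of the GH1 peak were chosen after seeing the data. No paired analysis was possible because each group held 1 library, and for the same reason no replicate could be left out. Neither the plasmid's expression nor hybrid loss can be read from the lists, and read depth was not given.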

Other observations

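Few genes of short noncoding RNAs had a TSS peak. Of 942 snoRNA genes, which guide chemical changes of ribosomal RNA, 7 had a TSS peak in both lists, 15 in S9.6 alone and 8 in RNH1 alone. For 1901 snRNA genes, of the spliceosome and related particles, the counts were 23, 13 and 12, and for 1879 miRNA genes 54, 60 and 50. The shares in both lists were 0.743%, 1.21% and 2.87%, against 17.5% of protein-coding genes. Many of these genes lie within or beside longer genes, and their peaks were not assigned to one or the other.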
